A study of Homo sapiens with 4 samples.

Results

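The 10 genes described here encode 2 TGF-beta ligands (TGFB1, TGFB2), a protein of the latent TGF-beta binding family (LTBP2), both signalling receptors (TGFBR1, TGFBR2), a receptor-like inhibitor (BAMBI), a signal transducer (SMAD3) and 3 negative regulators (SMAD7, SKIL, PMEPA1). They were taken by gene symbol from a deposited table of 17791 genes, and all 10 were among the 14856 genes that reached 1 CPM (counts scaled to a library of 1000000) in at least 1 library. RNA was sequenced from 3 engineered prostate cancer tissues (EPCaTs) and from a flat (2D) coculture of the same cells. The cells were PC-3, an established prostate cancer line, and BJ-5ta, a line of foreskin fibroblasts immortalised with telomerase, with no treatment in any group. The PF+2%PEGDA EPCaT and the PF+3%PEGDA EPCaT were hydrogels of polyethylene glycol and fibrinogen (PF) with added polyethylene glycol diacrylate (PEGDA), a crosslinker by which the study tuned tissue stiffness, and the PF EPCaT was the gel without it. EPCaTs were seeded at 5 PC-3 cells to 1 BJ-5ta cell, kept in PC-3 medium and taken on day 15, and several tissues were pooled for each library. For the 2D coculture the day and the ratio of the cells are not in the labels, so effects of the gel and of these conditions cannot be told apart.

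Each of the 4 groups had 1 library, so no comparison has replicates and no test between groups was possible. The 95% intervals given below cover counting error only, and each ratio compares libraries, not conditions. Total counts were 13760301 to 15687894 per library, and 1 count was worth 0.0599 to 0.0731 CPM. A gene is called higher or lower where it was at least 2-fold apart and its interval excluded equality. All 17 epithelial markers and 19 of 20 fibroblast markers were in the table, and none of these was at 0 counts in any library. The summed level of the fibroblast markers was 1532, 1313 and 1012 CPM in the EPCaTs with PF alone, 2% and 3% PEGDA, against 4978 CPM in 2D. Of the 18 tested, 12 were lower and 0 higher in all 3 EPCaTs, and 4 lay above 2D in mean log2 ratio. COL5A2 alone held 512, 200 and 177 CPM of the EPCaT sums, against 231 CPM in 2D, so the order of these sums among the gels leans on that gene. The epithelial markers summed to 6541, 7339 and 6904 CPM in the EPCaTs, against 4720 CPM in 2D, and 4 of 17 were higher in all 3. Markers of endothelial and blood cells, of which 7 of 11 were in the table, summed to 276, 325 and 382 CPM in the EPCaTs, against 150 CPM in 2D, where VWF was at 0. Of the 5 tested, 3 were higher in all 3 EPCaTs. These were the endothelial genes PECAM1 (9.06- to 11.9-fold) and KDR (6.93- to 10.2-fold) and the lysozyme gene LYZ (5.12- to 7.10-fold). CD68, a macrophage marker, went the other way, at 53.2, 55.2 and 66.4 CPM in the EPCaTs, against 119 CPM in 2D. CTNNA1, which is deleted in PC-3, measured 5.40, 6.18 and 8.27 CPM in the EPCaTs, against 33.3 CPM in 2D. Fewer fibroblasts and less RNA per fibroblast cannot be told apart in bulk RNA, and their part in the results below was not tested.

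TGF-beta is secreted in a latent form, held by its own propeptide and by binding proteins in the matrix, and is released by integrins, proteases and mechanical pull. The active ligand binds the type II receptor TGFBR2, which phosphorylates the type I receptor TGFBR1, which in turn phosphorylates SMAD2 and SMAD3. These enter the nucleus with SMAD4, and among the genes they induce are inhibitors of the same pathway. In prostate tumours TGF-beta is best known as a signal between carcinoma cells and the fibroblasts of the stroma.

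The SMAD3 and SMAD4 proteins bind the short letters CAGAC, so the sequences before the start sites of TGFB1 and PMEPA1, whose levels followed the closest pattern of any pair of the 10, are shown beside those of TGFB2, which went the other way with PEGDA, and of BAMBI, which was above 2D. All are from RefSeq (GRCh38.p14), 5′ to 3′ on the gene's strand, with CAGAC in capitals. They end at the annotated start, or before the outermost GENCODE start where that lies further upstream.
TGFB1: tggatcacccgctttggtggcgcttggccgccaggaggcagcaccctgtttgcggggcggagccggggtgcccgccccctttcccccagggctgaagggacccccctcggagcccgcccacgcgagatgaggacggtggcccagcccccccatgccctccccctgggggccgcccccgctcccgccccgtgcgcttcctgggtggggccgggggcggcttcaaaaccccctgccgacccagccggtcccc
PMEPA1: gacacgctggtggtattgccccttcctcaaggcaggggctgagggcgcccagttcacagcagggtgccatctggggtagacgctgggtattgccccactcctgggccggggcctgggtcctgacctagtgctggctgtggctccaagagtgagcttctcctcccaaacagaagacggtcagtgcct
TGFB2: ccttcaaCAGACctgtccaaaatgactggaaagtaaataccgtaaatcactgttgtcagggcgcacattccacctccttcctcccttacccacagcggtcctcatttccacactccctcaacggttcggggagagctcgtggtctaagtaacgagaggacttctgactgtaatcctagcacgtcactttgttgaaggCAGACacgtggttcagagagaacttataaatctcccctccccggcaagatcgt
BAMBI: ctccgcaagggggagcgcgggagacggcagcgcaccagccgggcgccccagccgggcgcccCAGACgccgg
These windows lie at chr19:41353923-41354172 (minus strand), chr20:57711537-57711722 (minus strand), chr1:218345086-218345335 (plus strand) and chr10:28677271-28677341 (plus strand). In the full 250 bases before the RefSeq start, CAGAC on either strand was present for 5 of the 10 genes, 2 times each for TGFB2, BAMBI and SMAD7 and 1 time each for TGFBR1 and SKIL (1 match of BAMBI lies in the stretch not printed), and it was present in 37.8% of 27305 promoter windows of the same length. The palindrome GTCTAGAC and the AP-1 letters TGANTCA were in none of the 10 windows, against 0.176% and 6.60% of all windows. By the outermost GENCODE starts, the full windows of TGFBR1, SMAD3 and SMAD7 lie inside the gene. Those of LTBP2, BAMBI, SKIL and PMEPA1 lie partly inside it. A match is a run of letters and not a measured binding site.

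Each EPCaT was first compared with 2D. Both ligand genes were lower in gel, TGFB2 by 2.90- to 3.96-fold in all 3 EPCaTs and TGFB1 by 3.12-fold in the PF EPCaT. TGFBR2 and PMEPA1 were also lower in the PF EPCaT, by 2.02-fold and 2.84-fold. BAMBI was the exception, with a level above 2D in every EPCaT, though under 2-fold. Of the 10 genes, 4 were lower and 0 higher in the PF EPCaT, where 28.5% of all tested genes were called, 16.2% higher and 12.3% lower. TGFB2 was the only one lower with 2% PEGDA and with 3% PEGDA, where 9.65% and 10.7% of tested genes were lower and 21.9% and 22.5% were called in either direction. The median log2 ratio of the 10 genes was -0.76, -0.43 and -0.55 in the EPCaTs with PF alone, 2% and 3% PEGDA, beside 0.01, 0.00 and -0.01 for all tested genes. Differences of any size beyond counting error were found for 9, 7 and 8 of the 10 genes, beside 76.8%, 71.3% and 71.6% of all tested genes, and BAMBI was the 1 above 2D each time. The 3 ratios share the 2D library, and the 10 genes were chosen with earlier results of these data known.

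**Figure D1:**
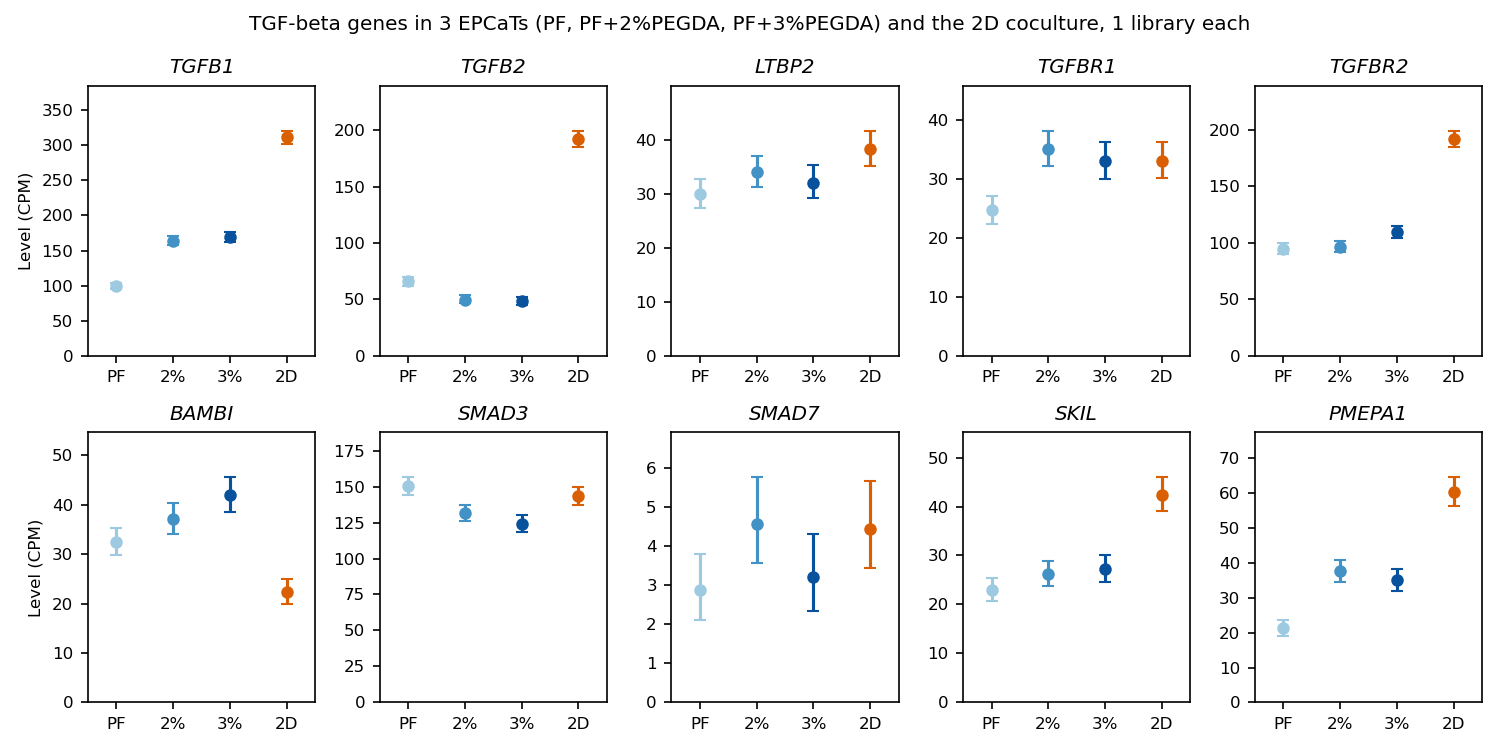
Level of each gene in CPM (y axes from 0) in EPCaTs of PF alone, with 2% PEGDA (2%) and with 3% PEGDA (3%), and in the 2D coculture, 1 library each; bars are exact 95% Poisson intervals, which cover counting error only. TGFB2 lies at 48.4 to 66.2 CPM in the EPCaTs, far below 2D at 192 CPM, while BAMBI is above 2D in all 3 EPCaTs.

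TGFB1 encodes the ligand isoform that gives the family its name (ENSG00000105329.9, chromosome 19, 41301587 to 41353911, GRCh38). It measured 99.6, 164 and 169.5 CPM in the EPCaTs with PF alone, 2% and 3% PEGDA, against 311 CPM in 2D. Every EPCaT lay below 2D beyond counting error, and the PF EPCaT lay below both gels with PEGDA. Its log2 ratio to 2D was -1.64 in the PF EPCaT (interval -1.73 to -1.56), which passed the 2-fold rule. With 2% and 3% PEGDA the ratios were -0.93 (-0.996 to -0.86) and -0.88 (-0.95 to -0.80), which did not. On the opposite strand the gene overlaps HNRNPUL1, CCDC97 and TMEM91, and the kit keeps no strand, so reads from the overlaps cannot be told apart.

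TGFB2 encodes the isoform that needs the co-receptor TGFBR3 for high-affinity binding (ENSG00000092969.11, chromosome 1, 218346235 to 218444619). It measured 66.2, 49.9 and 48.4 CPM in the 3 EPCaTs in the same order, against 192 CPM in 2D. Here the PF EPCaT was the highest of the gels, the reverse of TGFB1. The log2 ratios to 2D were -1.54 (-1.64 to -1.44), -1.94 (-2.06 to -1.83) and -1.99 (-2.11 to -1.87), all past the rule. TGFB2-OT1, an RNA annotated on the same strand inside the gene, held 0.204, 40.2 and 0.546 estimated counts in EPCaTs, against 115 in 2D, and 26.2% of the 50-base words of TGFB2 transcripts also occur in other genes, all of them in TGFB2-OT1. With the counts of both summed, the ratios were -1.59, -1.93 and -2.04.

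LTBP2 belongs to the latent TGF-beta binding proteins but is known to bind elastic fibres rather than the latent ligand (ENSG00000119681.11, chromosome 14, 74498170 to 74612378). It measured 30.03, 34.0 and 32.1 CPM in the EPCaTs, against 38.3 CPM in 2D. Its levels hardly spread, and libraries adjacent in rank did not differ beyond counting error. Its log2 ratios to 2D ran from -0.35 (-0.53 to -0.18) in the PF EPCaT to -0.17 (-0.35 to 0.00) with 2% PEGDA.

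The receptors moved unequally. TGFBR2, the receptor that first binds the ligand (ENSG00000163513.17, chromosome 3, 30606502 to 30694142), measured 94.8, 96.2 and 109.5 CPM in the EPCaTs, against 191.5 CPM in 2D. All 3 gels were well below 2D, and the gel with 3% PEGDA lay slightly above the other two. The log2 ratios were -1.02 (-1.11 to -0.93), -0.99 (-1.09 to -0.90) and -0.81 (-0.90 to -0.72), so the PF EPCaT was just past the 2-fold rule and the PF+2%PEGDA EPCaT just short of it. With total counts or upper quartiles as the scaling, the call in the PF EPCaT was lost.

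TGFBR1, the kinase that activates SMAD2 and SMAD3 (ENSG00000106799.12, chromosome 9, 99104038 to 99154192), measured 24.6, 35.0 and 33.0 CPM in the EPCaTs, against 33.1 CPM in 2D. The PF EPCaT alone stood apart, below the other 3 libraries. Its log2 ratio to 2D was -0.43 there (-0.62 to -0.23), and 0.08 (-0.10 to 0.26) and 0.00 (-0.19 to 0.19) with 2% and 3% PEGDA.

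BAMBI encodes a membrane protein that resembles a type I receptor but lacks the kinase domain, and it dampens TGF-beta signalling (ENSG00000095739.10, chromosome 10, 28677342 to 28682939). It measured 32.4, 37.1 and 41.9 CPM in the EPCaTs, against 22.3 CPM in 2D. The order was complete, with 2D lowest, the PF+3%PEGDA EPCaT highest and every neighbouring pair apart beyond counting error. The log2 ratios to 2D were 0.54 (0.34 to 0.74), 0.73 (0.54 to 0.94) and 0.91 (0.71 to 1.11). None reached 2-fold, and BAMBI was the only gene of the 10 with intervals above equality in all 3 EPCaTs.

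SMAD3 carries the signal from the receptors to DNA (ENSG00000166949.15, chromosome 15, 67063763 to 67195195). It measured 150.3, 132 and 124 CPM in the EPCaTs, against 144 CPM in 2D. The EPCaTs lay on both sides of 2D. The log2 ratio was 0.07 (-0.02 to 0.15) in the PF EPCaT and -0.21 (-0.31 to -0.12) in the PF+3%PEGDA EPCaT, and once a trend across genes with exon length and GC content was taken out it was -0.24 in the PF EPCaT, on the other side of 0.

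The negative regulators are genes that the pathway itself induces in many cell types. PMEPA1 encodes a membrane protein that holds SMAD2 and SMAD3 away from the receptor (ENSG00000124225.15, chromosome 20, 57648392 to 57711536). It measured 21.3, 37.6 and 35.0 CPM in the EPCaTs, against 60.4 CPM in 2D. The PF EPCaT was lowest, 2D highest, and the gels with PEGDA lay between them and within counting error of each other. The log2 ratios to 2D were -1.504 (-1.69 to -1.33), -0.68 (-0.84 to -0.53) and -0.79 (-0.95 to -0.62). The antisense gene NKILA overlaps its start and held 57, 48 and 48 counts in EPCaTs, against 52 in 2D.

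SKIL encodes SnoN, a nuclear corepressor of SMAD target genes (ENSG00000136603.13, chromosome 3, 170357678 to 170396835). It measured 22.96, 26.3 and 27.2 CPM in the EPCaTs, against 42.5 CPM in 2D. All 3 gels lay below 2D, at log2 ratios of -0.89 (-1.07 to -0.70), -0.69 (-0.88 to -0.51) and -0.64 (-0.83 to -0.45), and neighbouring gels did not differ beyond counting error. None passed the 2-fold rule.

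SMAD7, the inhibitory SMAD that targets the receptor for degradation (ENSG00000101665.9, chromosome 18, 48919853 to 48952052), was the least abundant of the 10. Its counts were 48, 71 and 44 in EPCaTs, against 65 in 2D, which is 2.88, 4.57 and 3.22 CPM against 4.45 CPM. Ranked by level, no adjacent libraries differed beyond counting error, although the PF EPCaT, the lowest, lay below the PF+2%PEGDA EPCaT, the highest, beyond it. At this depth its log2 ratio to 2D was known only to between -1.20 and -0.07 in the PF EPCaT, between -0.47 and 0.55 with 2% PEGDA and between -1.05 and 0.11 with 3% PEGDA, so a 2-fold lower level lay inside the interval for the PF EPCaT and for 3% PEGDA.

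**Figure D2:**
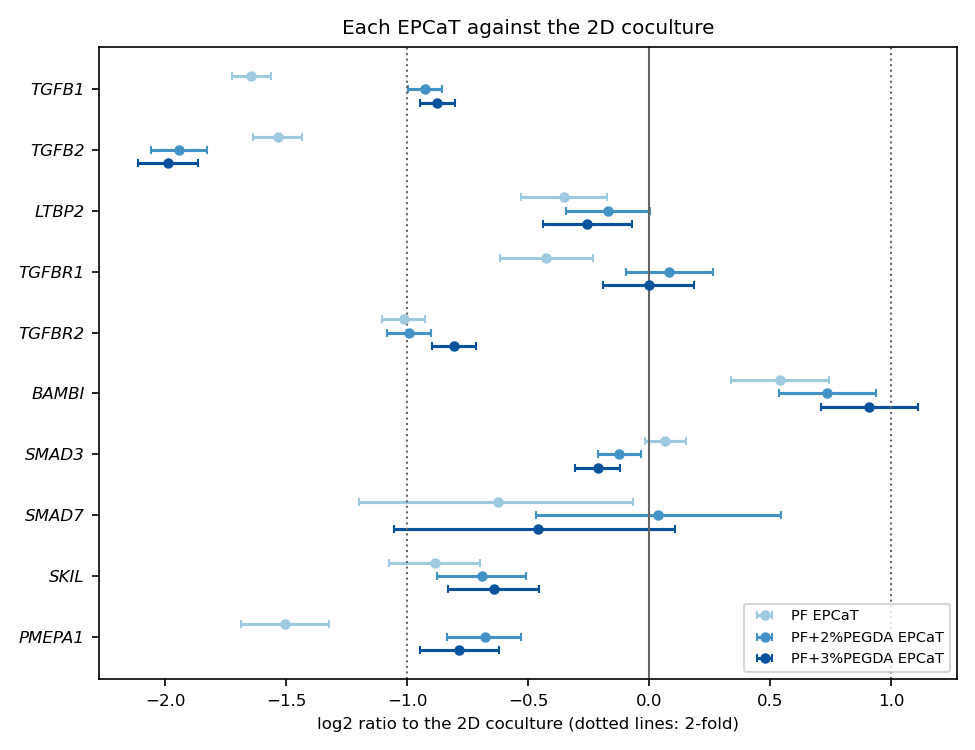
Log2 ratio of each EPCaT to the 2D coculture (x axis) for the 10 genes, with exact 95% intervals for counting error; dotted lines mark 2-fold. The 3 TGFB2 points and the PF points of TGFB1, TGFBR2 and PMEPA1 lie past the left line, and the 3 BAMBI points lie between 0 and the right line.

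The second comparison set the gels with PEGDA against the PF gel. No gene of the 10 reached 2-fold in any pair of EPCaTs. The rule called 11.1% of tested genes for 3% PEGDA against PF (3.62% higher, 7.49% lower), 8.45% for 2% PEGDA against PF (2.98% higher, 5.47% lower) and 4.27% for 3% against 2% PEGDA (1.85% higher, 2.42% lower). Differences under 2-fold were nonetheless beyond counting error for 8 of the 10 genes at 3% PEGDA against PF, 6 above and 2 below, beside 63.7% of all tested genes. The same counts were found at 2% PEGDA against PF, beside 59.1% of tested genes. With total counts as the scaling, LTBP2 and BAMBI at 2% PEGDA and SKIL at 3% PEGDA lay within counting error of PF. Between 3% and 2% PEGDA only TGFBR2 and BAMBI differed beyond counting error, both above, beside 39.5% of tested genes.

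TGFB1 and PMEPA1 had the largest ratios to the PF EPCaT. TGFB1 was 1.70-fold above PF with 3% PEGDA (interval 1.60 to 1.81) and 1.65-fold with 2% PEGDA (1.55 to 1.75). PMEPA1 was 1.65-fold above PF with 3% PEGDA (1.43 to 1.89) and 1.77-fold with 2% PEGDA (1.55 to 2.02). For both genes 3% and 2% PEGDA did not differ beyond counting error, except for TGFB1 with the trend with length and GC removed (log2 0.15, 0.07 to 0.23). TGFBR1 was 1.34-fold above PF with 3% PEGDA (1.17 to 1.53) and 1.42-fold with 2% (1.25 to 1.62).

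SMAD7 was 1.58-fold above PF with 2% PEGDA (1.09 to 2.34), on few counts, and SKIL was 1.18-fold above PF with 3% PEGDA (1.02 to 1.37). With total counts as the scaling, this log2 ratio of SKIL was 0.15 (-0.06 to 0.36), within counting error of 0.

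TGFB2 went the other way, 1.37-fold below PF with 3% PEGDA (interval 1.24 to 1.51) and 1.33-fold with 2% (1.21 to 1.46). SMAD3 was 1.21-fold below PF with 3% PEGDA (1.14 to 1.29), but with the trend with length and GC removed its log2 ratio was -0.04 (-0.13 to 0.05), within counting error of 0. BAMBI was the 1 gene of the 10 whose level was in rising order over the 3 gels with each step beyond counting error, at 1.15-fold above PF with 2% PEGDA (1.02 to 1.29) and 1.13-fold more from 2% to 3% (1.00 to 1.27). Such a rising order was found for 7.81% of tested genes and a falling one for 6.72%, and the first step of BAMBI lay within counting error once the trend with length and GC was removed (log2 0.10, -0.07 to 0.27). With total counts as the scaling both steps lay within counting error, at log2 0.13 (-0.05 to 0.30) from PF to 2% PEGDA and 0.15 (-0.02 to 0.32) between 2% and 3% PEGDA. CTNNA1 was 1.53-fold above PF with 3% PEGDA (1.15 to 2.04).

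**Figure D3:**
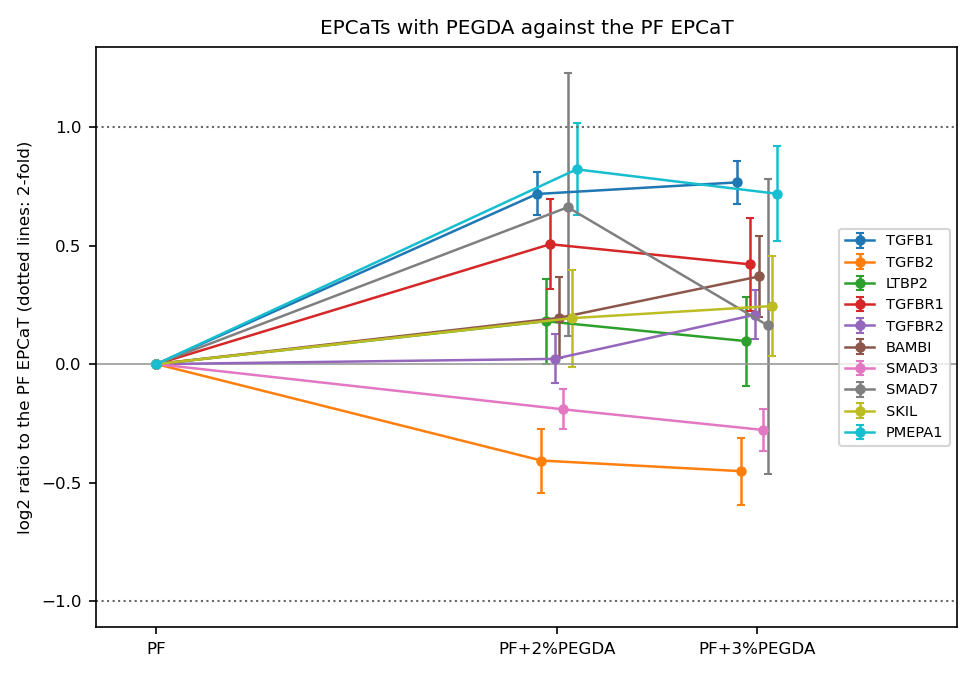
Log2 ratio to the PF EPCaT (y axis) of the EPCaTs with 2% and 3% PEGDA, with exact 95% intervals for counting error; points are shifted slightly sideways and dotted lines mark 2-fold. TGFB1 and PMEPA1 lie highest at 3% PEGDA, TGFB2 lies lowest, and no gene reaches 2-fold.

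Set beside each other per length of annotated exons, TGFB1 was the most abundant of the 10 in every library. Its level was 36.0, 59.2 and 61.2 CPM per kilobase in the EPCaTs, against 112 in 2D. TGFB2 measured 13.1, 9.88 and 9.58 CPM per kilobase in the EPCaTs, against 38.0 in 2D. The ratio of TGFB1 to TGFB2 per length was therefore 2.74 in the PF EPCaT, 5.99 and 6.39 with 2% and 3% PEGDA, and 2.96 in 2D. PF and 2D, the libraries with the lowest and highest TGFB1, had nearly the same balance of both ligands.

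Among the receptors, TGFBR2 exceeded TGFBR1 per length by 5.41, 3.86 and 4.67 times in the EPCaTs and by 8.14 times in 2D. BAMBI, at 17.3, 19.8 and 22.3 CPM per kilobase in the EPCaTs, was close to TGFBR2 there (20.2, 20.5 and 23.3). In 2D BAMBI was at 11.9 CPM per kilobase and TGFBR2 at 40.7. SMAD3 was 32.7, 18.1 and 24.1 times as abundant as SMAD7 per length in the EPCaTs and 20.2 times in 2D.

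**Figure D4:**
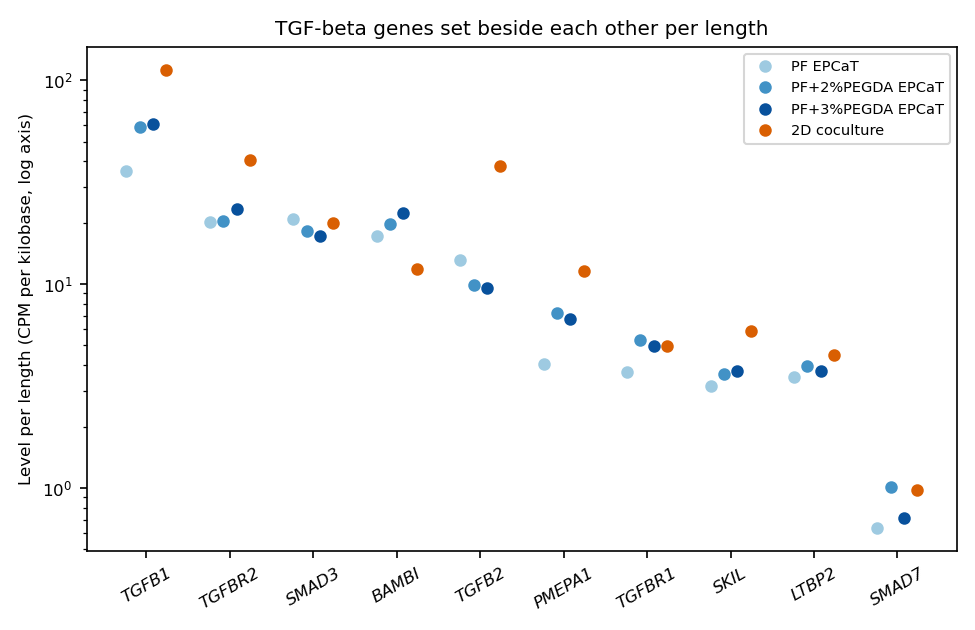
Level per length of each gene (CPM per kilobase of annotated exons, log axis) in the 4 libraries, genes ordered by their mean. TGFB1 is highest in every library and SMAD7 lowest, and the EPCaT points of BAMBI lie near those of TGFBR2.

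Other genes of the pathway were listed by role, and of these 88 were tested. The lists were chosen with earlier results of these data known, so the counts and medians below describe these genes only. In all 3 EPCaTs 5 of them were higher and 21 lower than in 2D, beside 7.73% and 6.20% of all tested genes (13.9% together). With total counts as the scaling the split was 9 higher and 19 lower, and the share of all tested genes was not computed. In the PF+3%PEGDA EPCaT 2 were higher and 4 lower than in the PF EPCaT, where 3.62% of all tested genes were higher and 7.49% lower (11.1% together).

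Of 13 further ligands 8 were tested, with 2 higher and 2 lower in all 3 EPCaTs. TGFB3, the third TGF-beta isoform, was higher in the gels, unlike TGFB1 and TGFB2. It measured 18.8, 18.2 and 15.73 CPM in the EPCaTs, against 5.96 CPM in 2D, 2.63- to 3.15-fold higher. The activin subunit genes INHBA and INHBB were 2.68- to 3.66-fold and 3.63- to 4.21-fold lower. GDF1 was 3.62-fold higher with 3% PEGDA than in PF.

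Of 17 tested genes of latency and activation 1 was higher and 4 lower in all 3 EPCaTs. ITGB6 encodes a subunit of an integrin that releases TGF-beta from its latent form, and it was 3.60- to 3.90-fold higher. ITGB5, another integrin subunit gene, was 2.22- to 3.11-fold lower, THBS1, a thrombospondin that can activate the ligand, 2.16- to 2.30-fold and PLAU, the urokinase gene, 2.22- to 2.89-fold. LTBP1 and LTBP3, the relatives of LTBP2 that do bind latent TGF-beta, were within 2-fold of 2D in every EPCaT, with LTBP1 1.42- to 1.76-fold above it.

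Of 11 tested receptors and co-receptors 1 was higher and 2 lower in all 3 EPCaTs. ACVR2B, an activin receptor, was 2.09- to 2.63-fold higher. ENG, the co-receptor endoglin, was 2.18- to 3.12-fold lower and NRP2 3.52- to 8.90-fold lower. With 3% PEGDA against PF, NRP2 was 2.53-fold lower (23 against 72 counts) and TGFBR3L 2.78-fold higher (256 against 112 counts). TGFBR3, the co-receptor for TGFB2, measured 15.4, 11.2 and 14.1 CPM in the EPCaTs, against 16.1 CPM in 2D.

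Of 24 tested SMADs and regulators 0 were higher and 4 lower in all 3 EPCaTs. These were BGN (9.67- to 10.8-fold), PPP1R15A (3.37- to 5.08-fold), and the activin traps FST (2.67- to 3.43-fold) and FSTL3 (2.53- to 3.89-fold). SMAD2 and SMAD4, the partners of SMAD3, stayed within 2-fold of 2D, as did the SKIL paralogue SKI and the ubiquitin ligase genes SMURF1 and SMURF2. Of these, SMURF2 was 1.64- to 1.92-fold below 2D. BGN is also a fibroblast product, and PPP1R15A is induced by cell stress as well.

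Of 28 tested target genes 1 was higher and 9 lower in all 3 EPCaTs, and averaged over the 3 EPCaTs their median log2 ratio was -0.72. TAGLN, a smooth muscle cytoskeletal gene, was 12.2- to 13.0-fold lower, and SNAI2, a transcription factor of epithelial to mesenchymal transition, 8.72- to 13.2-fold. FN1, the fibronectin gene, was lower by 5.82- to 7.72-fold, and the collagen gene COL1A1 by 4.80- to 7.13-fold. ACTA2, the smooth muscle actin gene, was 2.07-fold lower with 3% PEGDA than in PF, on few counts (12 against 31, or 0.88 against 1.86 CPM). The higher gene was LMCD1, at 3.00- to 3.23-fold. POSTN had 2, 0 and 0 counts in EPCaTs, against 15 in 2D, and the median was also -0.72 with its 0 counts set to 3 per library. KLF10 and JUNB, early targets, were within 2-fold of 2D, at 1.03- to 1.25-fold and 1.58- to 1.83-fold below it. Many of the lower targets are also fibroblast products, and COL1A1 is in the fibroblast marker list whose summed level is given above.

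**Figure D5:**
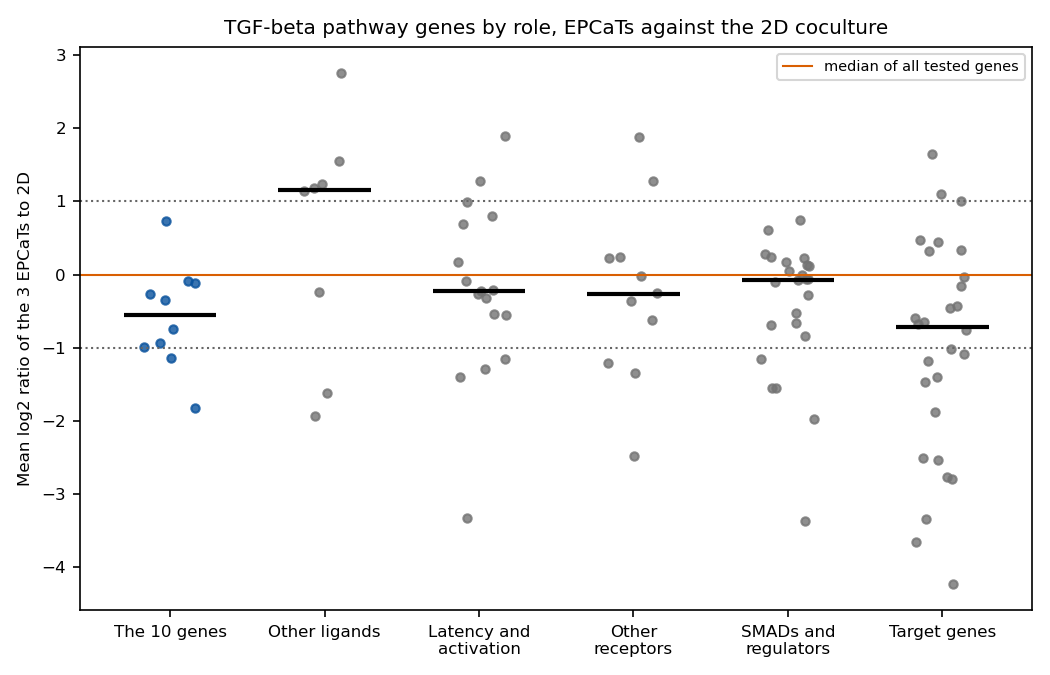
Mean log2 ratio of the 3 EPCaTs to the 2D coculture (y axis) for the 10 genes and for the tested genes of 5 lists by role; each point is a gene, black lines are list medians, the orange line is the median of all tested genes and dotted lines mark 2-fold. The median of the 10 genes is -0.55, that of the other ligands 1.16 and that of the target genes -0.72.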

How the data were processed

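The data are 1 deposited table in expected counts, an estimate of the reads of each gene. The submitters' processing notes name FastQC, STAR, Partek and hg38. Versions, the annotation and the counting method are not given in the sources used here. RNA was purified on columns and libraries were made with a TruSeq RNA kit, version 2, per the labels' protocols. Between 18.2% and 19.9% of values were not whole (tolerance 0.01), so they were rounded. Libraries were scaled by the trimmed mean of M-values (edgeR 4.0.16, R 4.3.3). Log2 ratios used a prior count of 0.5, with exact Clopper-Pearson 95% intervals, in scipy 1.17.1 (Python 3.11.15). Calls were tried on simulated data with counting error alone and planted changes. The simulation held no variation between cultures, so it cannot show whether calls would hold in replicates. Gene models, lengths and overlaps came from GENCODE release 29 (GRCh38), and 95.1% of tested genes had a length and GC value. The alternatives tried were total counts, size factors from DESeq2 1.42.0, upper quartiles, other fold rules, a prior count of 2, no filter, removal of a quadratic trend with exon length and GC, and the longest transcript as length. The sum of TGFB2 and TGFB2-OT1 was added after seeing the data. The members and the gene lists were chosen with earlier results of these data known. Besides the 10 genes, the text names up to 4 higher and 4 lower genes a list called in all 3 EPCaTs, and up to 3 each for PF+3%PEGDA against PF. These were ranked by the interval bound nearest to 0. Each had at least 5 CPM in the highest of the 4 libraries, which need not be one of the libraries compared. The text also names CTNNA1, overlapping genes and genes nearest in profile. LTBP1, LTBP3, TGFBR3, SMAD2, SMAD4, SKI, SMURF1, SMURF2, KLF10, JUNB, POSTN, COL5A2, PECAM1, KDR, LYZ, CD68 and VWF fall outside this rule and were chosen after their values were seen. Some genes that these rules cover are not reported here.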

Additional observations from a re-analysis of the deposited data

How the results depend on the processing

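Under DESeq2 size factors, a prior count of 2 and the sum of TGFB2 with TGFB2-OT1, none of the 60 log2 ratios of the 10 genes to 2D or between EPCaTs changed its call. Total counts and upper quartiles each changed 1 call, that of TGFBR2 in the PF EPCaT, and gave 3 lower genes there; total counts moved the median of all tested genes in that comparison to 0.19. Removal of the trend with length and GC changed 2 calls, so that 5 genes were lower in the PF EPCaT (SKIL in addition) and 2 with 2% PEGDA (TGFBR2 in addition), and turned the sign of 5 ratios that were not called; the cause was not tested. No call changed direction. At 4-fold, 0 of the 10 genes were called in any comparison, 10 other pathway genes were called in all 3 EPCaTs against 2D and 0 between 3% PEGDA and PF. At 1.5-fold, 6 of the 10 genes were called in each EPCaT against 2D (1 higher and 5 lower with 2% and with 3% PEGDA), 2 at 3% PEGDA against PF (TGFB1 and PMEPA1, both higher) and 3 at 2% PEGDA against PF, with 41 and 17 other pathway genes. Under the other scalings, the trend removal and the 4-fold and 1.5-fold rules, the share of all tested genes called was not computed. Whether the counts given for these settings are high or low is therefore not known. Without a filter on low counts the share of all genes called in the PF EPCaT against 2D was 26.9%. No paired analysis was possible because each group has 1 library. Depth limited SMAD7 most, at 44 to 71 counts per library.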

Other observations

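For each of the 10 genes, the genes with the nearest profile were found over the 4 libraries, as the smallest Euclidean distance between log2 levels centred on each gene's own mean, among 11726 genes that averaged at least 5 CPM. With 4 libraries near profiles are common: 1323 genes lay within 0.25 of LTBP2, 1089 of SMAD3, 706 of TGFBR1, 653 of SKIL, 359 of BAMBI and 296 of TGFBR2. They were fewer for the other 4 genes, with 88 for SMAD7, 84 for PMEPA1, 67 for TGFB1 and 14 for TGFB2. Nearest to TGFB1 was EIF1, a translation initiation factor gene, at 302, 491 and 507 CPM in the EPCaTs with PF alone, 2% and 3% PEGDA, against 931 CPM in 2D (distance 0.015). Nearest to TGFB2 was RRS1, a ribosome assembly gene, at 42.3, 32.4 and 30.7 CPM in the EPCaTs, against 132 CPM in 2D (distance 0.086). The gene nearest to BAMBI was TWSG1, which encodes an extracellular modulator of BMP, at 262, 305 and 348 CPM in the EPCaTs, against 184 CPM in 2D (distance 0.031). Among the 10 genes themselves, TGFB1 and PMEPA1 were the closest pair (distance 0.18), followed by TGFBR2 and SKIL (0.21).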
